A study of Mus musculus with 11 samples.

Results

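Stem and multipotent progenitor genes are the genes that haematopoietic stem cells and the progenitors just below them express and that differentiating cells turn off. The 9 described here are Cd34, Procr, Emcn, Meis1, Hoxa9, Hlf, Mecom, Myct1 and Angpt1. The set was chosen by name, with earlier results of these data known. Each gene was read from the probe set that carries its symbol alone and has the highest mean over all arrays. All 9 had such a probe set, among 22180 genes tested. Expression was measured on 11 microarrays of bone marrow common lymphoid progenitors (CLPs), which can form all kinds of lymphocyte. C57BL/6 mice, with no age or further genotype given in the labels, had received either 50 µg of CpG1826, a synthetic oligonucleotide that activates Toll-like receptor 9, or PBS, every other day until the sort on day 10. CLPs were sorted by surface Ly-6D, which appears as they enter the B lineage, giving 3 arrays of Ly-6D+ CLPs after CpG, 2 of Ly-6D+ CLPs after PBS, 3 of Ly-6D- CLPs after CpG and 3 of Ly-6D- CLPs after PBS. Nothing in the labels ties a replicate to its own mouse or pool of mice, or the populations to shared mice, so each p measures the spread between these samples, which may be technical.

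Haematopoiesis runs from self-renewing stem cells through multipotent progenitors to lineage-restricted cells such as CLPs. Stem and multipotent cells are kept in that state by transcription factors of the Hox, Meis, PAR bZIP and Evi1 families. Surface proteins, among them CD34 and the protein C receptor, are used to sort these cells. Part of this program persists in early lymphoid progenitors and is lost as B-lineage genes come on.

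The promoters of the 3 genes with the smallest p between the populations after PBS, Cd34, Myct1 and Hlf, are shown to place these genes and to show what precedes their starts. Each line gives the 250 bases before the start of the gene in RefSeq, GRCm38.p6, 5′ to 3′ on the strand of the gene, at chr1:194938571-194938820 (plus strand) for Cd34, chr10:5593478-5593727 (plus strand) for Myct1 and chr11:90390918-90391167 (minus strand) for Hlf. Capitals mark matches, on either strand, to 4 motifs, AGATAA (bound by GATA factors), TGTGGT (RUNX factors), TGACAG (MEIS factors) and AGGAAG (ETS factors).
Cd34: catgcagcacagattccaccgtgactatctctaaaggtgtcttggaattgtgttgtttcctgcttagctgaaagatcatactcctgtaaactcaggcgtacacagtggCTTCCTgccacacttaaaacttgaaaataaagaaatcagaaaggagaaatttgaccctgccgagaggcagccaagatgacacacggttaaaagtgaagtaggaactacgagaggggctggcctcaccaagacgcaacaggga
Myct1: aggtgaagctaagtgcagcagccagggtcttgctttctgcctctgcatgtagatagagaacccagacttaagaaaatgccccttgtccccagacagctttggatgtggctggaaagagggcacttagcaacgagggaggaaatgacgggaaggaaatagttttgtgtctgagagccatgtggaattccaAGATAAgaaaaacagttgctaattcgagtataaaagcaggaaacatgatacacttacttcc
Hlf: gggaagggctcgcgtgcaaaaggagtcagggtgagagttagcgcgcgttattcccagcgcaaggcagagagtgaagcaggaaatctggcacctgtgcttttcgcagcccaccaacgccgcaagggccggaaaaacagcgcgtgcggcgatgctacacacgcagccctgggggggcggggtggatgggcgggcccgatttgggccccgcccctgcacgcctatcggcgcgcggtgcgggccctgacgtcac
The Cd34 window held 1 ETS motif, the Myct1 window held 1 GATA motif, and the Hlf window held none of the 4. RefSeq windows were at hand for 8 of the 9 genes. The ETS motif was found in 3 of the 8 (Cd34, Emcn and Hoxa9), against 29.5% of all 32851 windows of this length. The GATA motif (Myct1), the RUNX motif (Meis1) and the MEIS motif (the second Mecom start) were each found in 1 gene, against 9.99%, 14.0% and 15.9% of all windows. No window of these genes held more than 1 of the 4 motifs, and a match is a description of the letters only.

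All 9 genes were lower in Ly-6D+ CLPs than in Ly-6D- CLPs after PBS, and all 9 passed the test, a Benjamini-Hochberg adjusted p below 0.05 in limma over 22180 genes. The call rule passed 0.798% of all genes as lower in this comparison. The 9 genes and the further lists below were chosen with earlier results of these data known. Shares of all genes therefore give scale and do not test a set. The 2 Ly-6D+ arrays lay below all 3 Ly-6D- arrays for each of the 9, as for 14% of all genes. The median log2 difference of the 9 was -1.50, against -0.01 over all genes, and single genes ran from -0.77 (Hoxa9) to -2.81 (Myct1). After CpG all 9 were again lower in Ly-6D+ CLPs, 6 of them past the test, against 0.938% of all genes, with a median of -1.13 against -0.00 over all genes. The arrays of 8 of the 9 did not overlap, as for 9.04% of all genes in this direction. In bulk samples such as these, fewer cells of a kind and less RNA per cell cannot be told apart.

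**Figure D1:**
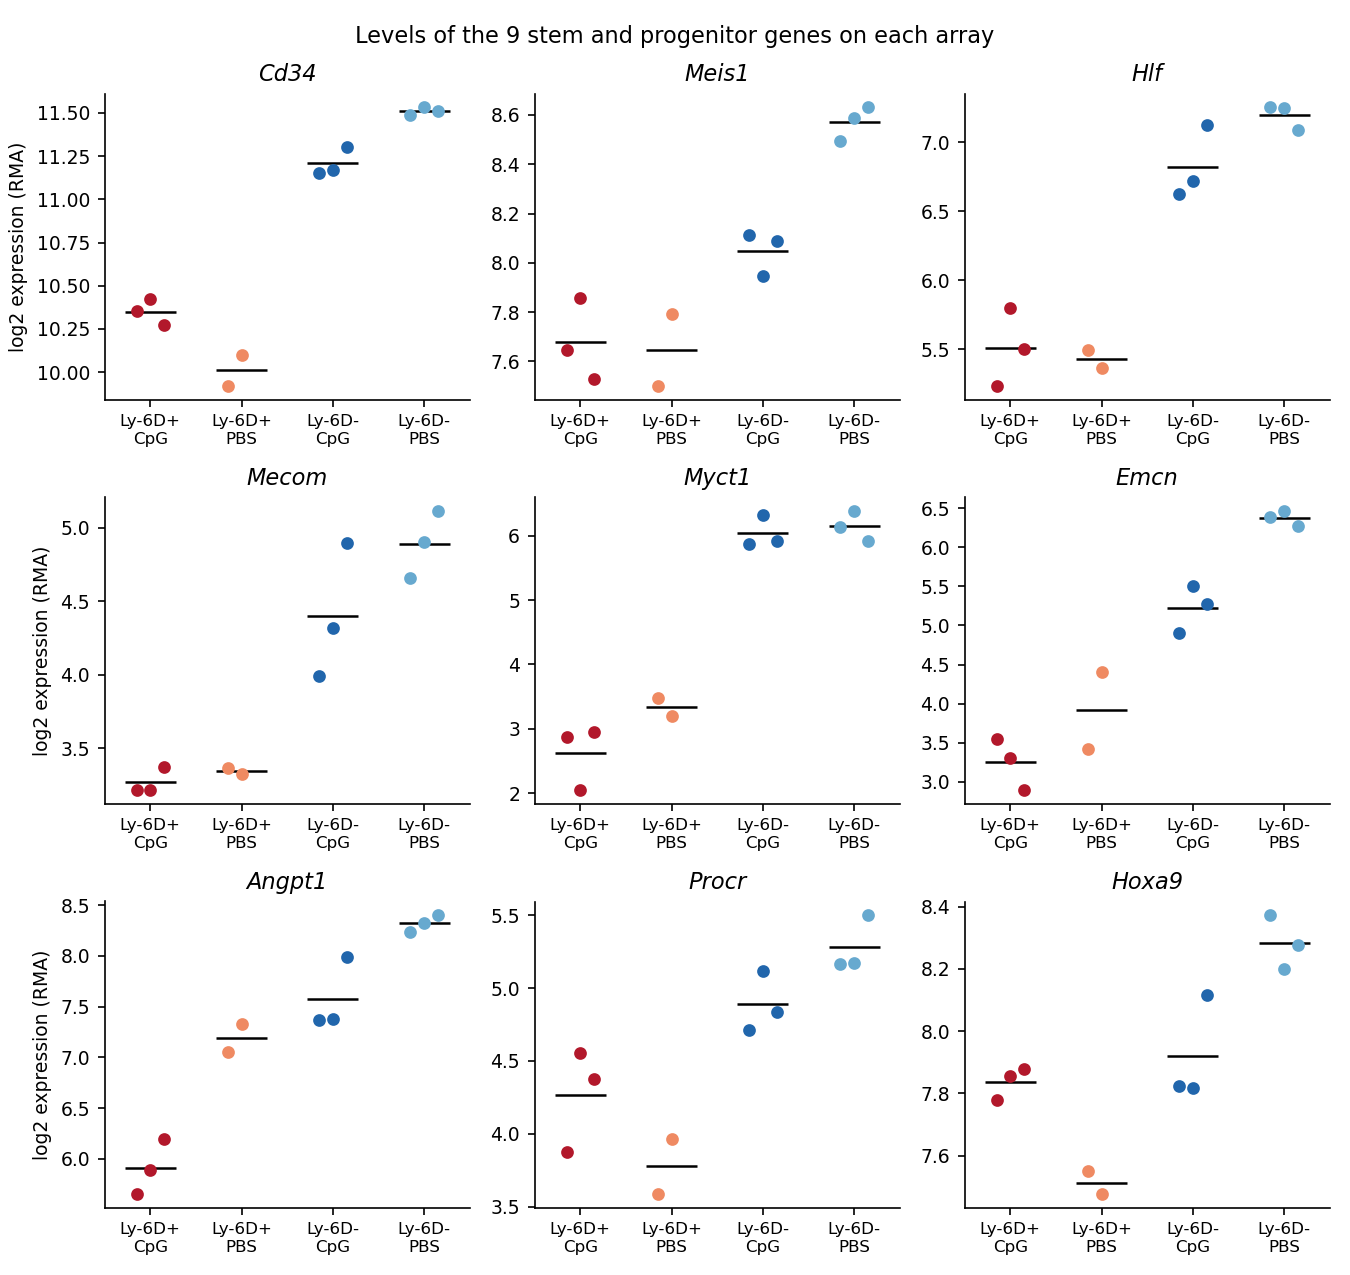
Log2 expression (RMA) of the 9 genes, 1 panel per gene, in the 4 groups of arrays. Points are arrays and bars are group means. In every panel the Ly-6D- CLPs after PBS are the highest group, and the Ly-6D+ arrays lie below the Ly-6D- arrays after PBS.

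Of the surface proteins, CD34 is a sialomucin of progenitor cells. The log2 level of Cd34 was 10.35, 10.42 and 10.27 in Ly-6D+ CLPs after CpG, 9.92 and 10.10 in Ly-6D+ CLPs after PBS, 11.15, 11.17 and 11.30 in Ly-6D- CLPs after CpG, and 11.49, 11.53 and 11.51 in Ly-6D- CLPs after PBS. The 4 groups did not overlap, and the order from low to high was Ly-6D+ after PBS, Ly-6D+ after CpG, Ly-6D- after CpG and Ly-6D- after PBS. Cd34 was 2.83-fold lower in Ly-6D+ than in Ly-6D- CLPs after PBS (log2 difference -1.50, SE 0.10, limma adjusted p = 2.92e-05) and 1.81-fold lower after CpG (-0.86, SE 0.09, adjusted p = 0.000614).

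Emcn encodes endomucin, a sialomucin of endothelium and of stem cells. Its level was 3.55, 3.30 and 2.89 in Ly-6D+ CLPs after CpG, 3.42 and 4.41 in Ly-6D+ CLPs after PBS, 4.91, 5.50 and 5.27 in Ly-6D- CLPs after CpG, and 6.39, 6.46 and 6.27 in Ly-6D- CLPs after PBS. The 2 groups of Ly-6D+ arrays overlapped, and the other neighbours in this order did not. Emcn was 5.50-fold lower in Ly-6D+ CLPs after PBS (-2.46, SE 0.28, adjusted p = 0.00129) and 3.95-fold lower after CpG (-1.98, SE 0.25, adjusted p = 0.00192).

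Procr, the endothelial protein C receptor that marks stem cells, had levels of 3.87, 4.55 and 4.37 in Ly-6D+ CLPs after CpG, 3.59 and 3.97 in Ly-6D+ CLPs after PBS, 4.72, 5.12 and 4.83 in Ly-6D- CLPs after CpG, and 5.17, 5.17 and 5.50 in Ly-6D- CLPs after PBS. The populations were separate after either treatment, though by less after CpG. The log2 difference was -1.50 after PBS (SE 0.21, adjusted p = 0.00432) and -0.62 after CpG (SE 0.19, adjusted p = 0.159), which did not pass.

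Of the transcription factors, Meis1 is a homeodomain cofactor that binds DNA together with Hox proteins. Its level was 7.65, 7.86 and 7.53 in Ly-6D+ CLPs after CpG, 7.50 and 7.79 in Ly-6D+ CLPs after PBS, 8.11, 7.95 and 8.09 in Ly-6D- CLPs after CpG, and 8.49, 8.59 and 8.63 in Ly-6D- CLPs after PBS. The 2 Ly-6D+ groups overlapped, and the Ly-6D- arrays after CpG lay between them and the Ly-6D- arrays after PBS. The difference between populations was -0.92 after PBS (SE 0.13, adjusted p = 0.00411) and -0.37 after CpG (SE 0.12, adjusted p = 0.168), which did not pass.

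Hoxa9, a homeodomain factor of stem and early lymphoid cells in the mouse, had levels of 7.78, 7.86 and 7.88 in Ly-6D+ CLPs after CpG, 7.55 and 7.48 in Ly-6D+ CLPs after PBS, 7.82, 7.82 and 8.12 in Ly-6D- CLPs after CpG, and 8.37, 8.20 and 8.28 in Ly-6D- CLPs after PBS. After CpG the populations overlapped, which Hoxa9 alone of the 9 genes did. It was 1.70-fold lower in Ly-6D+ CLPs after PBS (-0.77, SE 0.12, adjusted p = 0.00618), and its difference after CpG was -0.08 (SE 0.10, adjusted p = 0.82).

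Hlf, a PAR bZIP factor of stem cells, had levels of 5.23, 5.80 and 5.50 in Ly-6D+ CLPs after CpG, 5.49 and 5.37 in Ly-6D+ CLPs after PBS, 6.62, 6.72 and 7.12 in Ly-6D- CLPs after CpG, and 7.25, 7.25 and 7.09 in Ly-6D- CLPs after PBS. The populations were far apart and the treatments overlapped within each. Hlf was 3.40-fold lower in Ly-6D+ CLPs after PBS (-1.77, SE 0.18, adjusted p = 0.000589) and 2.48-fold lower after CpG (-1.31, SE 0.16, adjusted p = 0.00157).

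Mecom, the Evi1 zinc-finger factor needed for stem cell self-renewal, had levels of 3.22, 3.22 and 3.37 in Ly-6D+ CLPs after CpG, 3.37 and 3.32 in Ly-6D+ CLPs after PBS, 3.99, 4.32 and 4.90 in Ly-6D- CLPs after CpG, and 4.66, 4.91 and 5.11 in Ly-6D- CLPs after PBS. The Ly-6D+ arrays were all close to 3.3 and below every Ly-6D- array. The difference was -1.55 after PBS (SE 0.22, adjusted p = 0.00491) and -1.13 after CpG (SE 0.20, adjusted p = 0.0144). A second, dimmer Mecom probe set, whose log2 level reached at most 3.82, gave -0.84 (adjusted p = 0.224) and -0.31 (adjusted p = 0.685) and did not pass.

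Myct1, a Myc target that encodes a membrane protein of endothelial and stem cells, had levels of 2.87, 2.05 and 2.95 in Ly-6D+ CLPs after CpG, 3.48 and 3.20 in Ly-6D+ CLPs after PBS, 5.87, 6.32 and 5.92 in Ly-6D- CLPs after CpG, and 6.14, 6.38 and 5.92 in Ly-6D- CLPs after PBS. The populations were separate after either treatment, and the treatments overlapped within Ly-6D- CLPs. Myct1 was 7.0-fold lower in Ly-6D+ CLPs after PBS (-2.81, SE 0.26, adjusted p = 0.000275) and 10.6-fold lower after CpG (-3.41, SE 0.23, adjusted p = 3.42e-05). On all 5 Ly-6D+ arrays Myct1 lay below the array median, and signal over background is unknown there, so these folds are between RMA values and not between levels shown to be above background.

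Angpt1 encodes angiopoietin-1, the ligand of the receptor Tie2. Its level was 5.66, 5.89 and 6.20 in Ly-6D+ CLPs after CpG, 7.06 and 7.33 in Ly-6D+ CLPs after PBS, 7.36, 7.37 and 7.99 in Ly-6D- CLPs after CpG, and 8.24, 8.32 and 8.40 in Ly-6D- CLPs after PBS. The 4 groups did not overlap, and Angpt1 was the only one of the 9 lower after CpG in both populations without overlap. It was 2.19-fold lower in Ly-6D+ CLPs after PBS (-1.13, SE 0.21, adjusted p = 0.0206), and 3.16-fold lower after CpG (-1.66, SE 0.19, adjusted p = 0.000885). The second Angpt1 probe set, at 2.37 to 3.97, gave -0.79 (adjusted p = 0.0745) and -0.47 (adjusted p = 0.262), which did not pass.

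**Figure D2:**
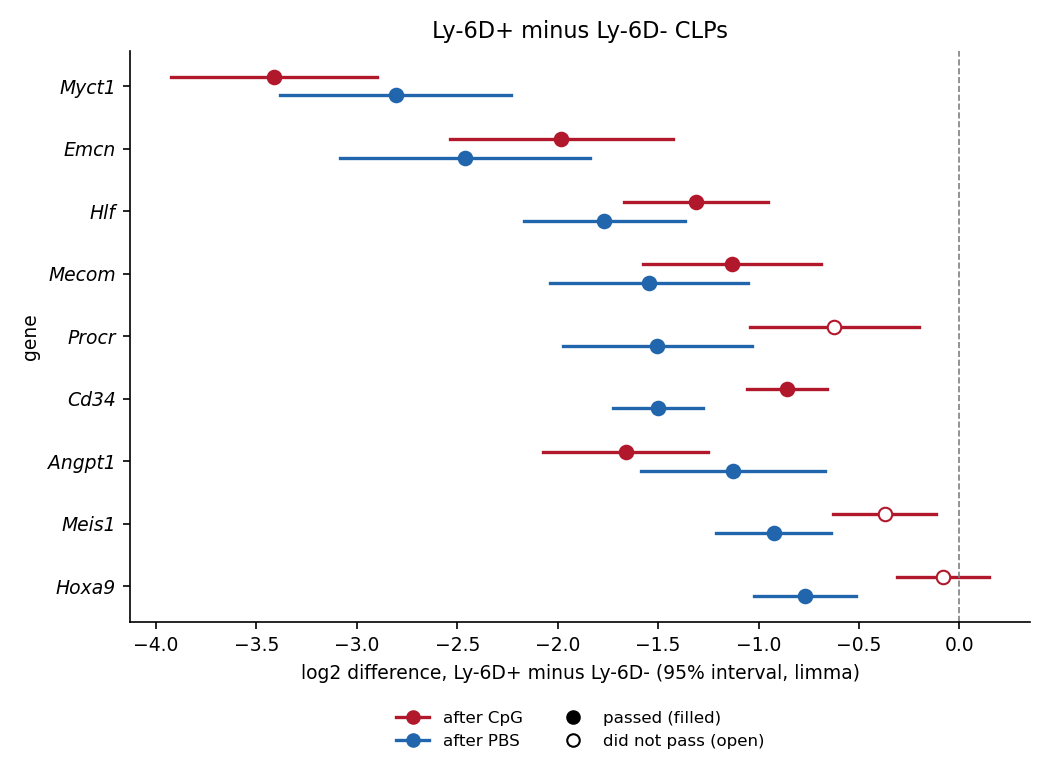
Log2 difference of Ly-6D+ minus Ly-6D- CLPs for the 9 genes under CpG (red) and under PBS (blue), with 95% intervals from limma. Filled points passed the test. All points lie below 0, and Procr, Meis1 and Hoxa9 are filled after PBS and open after CpG.

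The group of 2 Ly-6D+ PBS arrays limited the comparison after PBS. Without its replicate 1 the adjusted p rose to 0.174 for Angpt1, 0.0666 for Procr, 0.0611 for Meis1 and 0.0517 for Mecom, and 5 of the 9 passed; without its replicate 2 it rose to 0.0723 for Angpt1, 0.0682 for Hoxa9 and 0.0527 for Mecom, and 6 passed. Without Ly-6D- PBS replicate 2 or 3 the call of Angpt1 ended (0.0626 and 0.0674). After CpG the call of Mecom ended when Ly-6D+ CpG array 1 (0.0608) or 2 (0.0554) was left out, and also without Ly-6D- CpG array 2 (0.0516). Mecom, Myct1, Emcn and Procr were below the array median on 6, 5, 4 and 3 of the 11 arrays, where the same limit holds.

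In Ly-6D- CLPs all 9 were lower on average after CpG than after PBS, with a median log2 change of -0.39 against -0.00 over all genes, and the CpG arrays of 6 (Cd34, Meis1, Emcn, Angpt1, Procr and Hoxa9) lay below all PBS arrays, as for 7.2% of all genes. However, 0 of the 9 passed in limma, where 0.546% of all genes passed, 0.302% as higher and 0.243% as lower. At an unadjusted p under 0.05 there were 7 of the 9, all lower. Of all genes 1255 were lower at that level, and 2664 (12%) reached it in either direction. The largest changes were those of Emcn (-1.15, SE 0.25, adjusted p = 0.0792), Angpt1 (-0.74, SE 0.19, adjusted p = 0.128) and Meis1 (-0.52, SE 0.12, adjusted p = 0.0815). The changes of Hoxa9 (-0.36, SE 0.10, adjusted p = 0.17) and Cd34 (-0.30, SE 0.09, adjusted p = 0.193) were smaller, and that of Myct1 was -0.11 (SE 0.23). With a variance trend and robust estimation Cd34, Meis1 and Emcn passed (adjusted p = 0.0263, 0.0258 and 0.0364).

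Ly-6D- CpG replicate 3 lay nearest to the PBS arrays for Cd34, Hlf, Mecom, Angpt1 and Hoxa9, and on the second principal component it lay at -0.74, against 22.7 and 19.4 for the other Ly-6D- CpG arrays and -22.6 to -15.2 for the Ly-6D- PBS arrays. Without it Angpt1 passed in Ly-6D- CLPs (-0.95, adjusted p = 0.0217), Mecom changed by -0.73 (adjusted p = 0.052) and Hoxa9 by -0.46 (adjusted p = 0.0529). Ly-6D+ CpG replicate 3 lay apart in the same way, at -0.39 against 11.6 and 15.5 for the other Ly-6D+ CpG arrays and -8.99 and -4.33 for the Ly-6D+ PBS arrays.

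In Ly-6D+ CLPs the 9 genes did not share a direction. Averages were higher after CpG for 5 and lower for 4, the median was 0.03 against 0.00 over all genes, and 0 of the 9 passed in limma, where 0.0271% of all genes did. At an unadjusted p under 0.05 there were 6 of the 9, 3 higher and 3 lower, and 1443 of all genes (6.51%), 694 higher and 749 lower. The CpG arrays of Cd34 (0.34, SE 0.10, adjusted p = 0.524) and Hoxa9 (0.32, SE 0.12, adjusted p = 0.642) lay above both PBS arrays, as for 10.7% of all genes, and those of Angpt1 and Myct1 lay below both, as for 9.76%. Procr had a change of 0.49 (SE 0.21, adjusted p = 0.738), Myct1 of -0.71 (SE 0.26, adjusted p = 0.659), Emcn of -0.67 (SE 0.28, adjusted p = 0.731) and Angpt1 of -1.28 (SE 0.21, adjusted p = 0.12). Angpt1 passed there when the spread was estimated robustly with a trend (0.0363), and when Ly-6D- CpG replicate 3 was left out (0.043). Changes of Meis1, Hlf and Mecom were between -0.07 and 0.08. Leaving out single arrays moved the change of Emcn between -1.16 (without Ly-6D+ PBS replicate 1) and -0.17 (without replicate 2), that of Myct1 between -0.88 and -0.43 and that of Procr between 0.30 and 0.69. Without Ly-6D+ CpG replicate 3, 0 of the 9 passed in limma (Angpt1 at -1.42, adjusted p = 0.0634), and 16 of all genes did, against 6 with it.

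**Figure D3:**
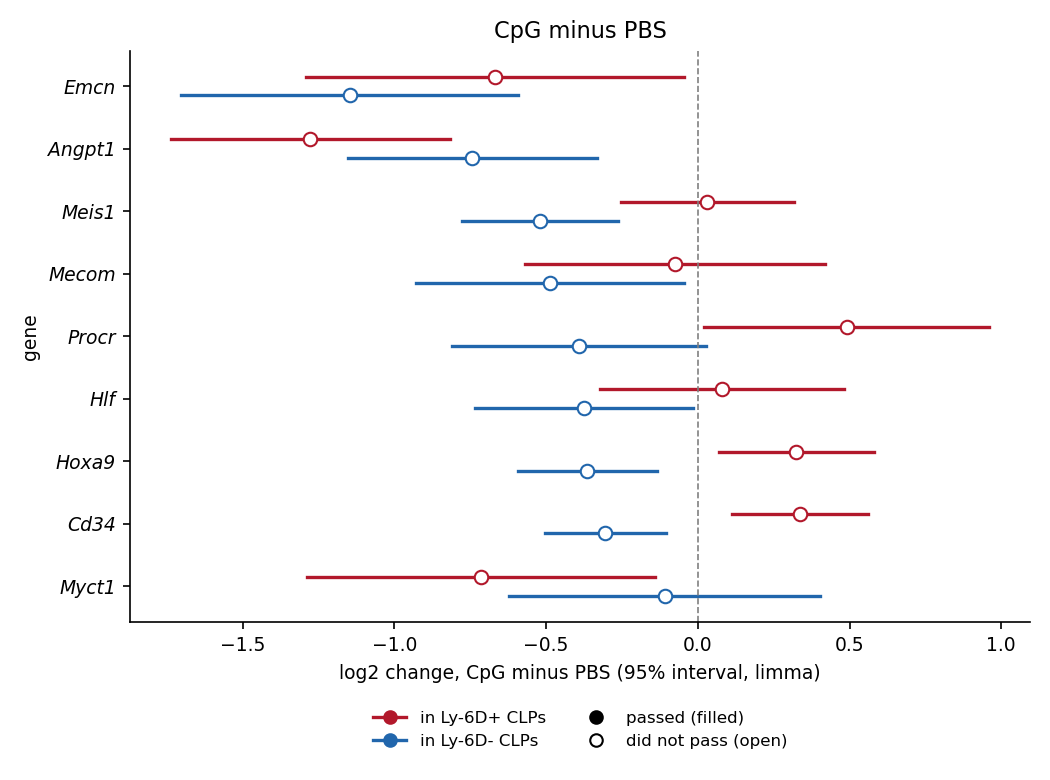
Log2 change, CpG minus PBS, of the 9 genes in Ly-6D+ and in Ly-6D- CLPs, with 95% intervals from limma. All points are open, since none passed. Those for Ly-6D- CLPs all lie below 0, while Cd34, Hoxa9, Procr, Hlf and Meis1 lie above 0 in Ly-6D+ CLPs.

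Averaged over both populations, Angpt1 fell by 1.01 on the log2 scale (SE 0.14, limma adjusted p = 0.0167), the 1 of the 9 that passed, where 0.203% of all genes passed as lower. Emcn followed with -0.91 (SE 0.19, adjusted p = 0.0796), which did not pass, or 0.0373 with a variance trend and robust estimation. Angpt1 lost the call when either Ly-6D+ PBS array was left out (0.0602 without replicate 1, 0.0895 without replicate 2), and likewise for Ly-6D- CpG arrays 1 (0.0527) and 2 (0.0539). Its second, dim probe set changed by -0.46 (adjusted p = 0.19).

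The CpG effect in Ly-6D+ minus that in Ly-6D- CLPs was positive for 7 of the 9 genes and negative for Myct1 (-0.60, SE 0.35) and Angpt1 (-0.53, SE 0.28). It was largest for Procr (0.88, SE 0.28, adjusted p = 0.66), Hoxa9 (0.69, SE 0.15, adjusted p = 0.538) and Cd34 (0.64, SE 0.14, adjusted p = 0.501). In limma 0 of the 9 and 0% of all genes passed this test of the difference. At an unadjusted p under 0.05 there were 4 of the 9 (Cd34, Meis1, Procr and Hoxa9), all positive. Of all genes 1413 (6.37%) reached that level, 676 of them positive. The 95% interval ran from 0.34 to 0.94 for Cd34 and from 0.35 to 1.03 for Hoxa9, not adjusted for the number of genes.

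The levels of the 9 genes ran together over the 11 arrays. Pearson correlations over the 36 pairs were between 0.59 (Angpt1 with Hoxa9) and 0.97 (Cd34 with Hlf), with a median of 0.88. The arrays share 4 groups, and the separation of the populations enters every pair. The search for genes with like patterns passed over predicted and numbered symbols, such as those with Gm or Rik. Among the genes left, the pattern most like that of Hlf was that of Kit, the stem cell factor receptor (r = 0.99 over 11 arrays), followed by Adgrl4 and Tbxas1 (0.98 each). Myct1 was most like Nfe2 (0.98) and Car2 (0.96), Cd34 like Gcnt2, Acot1 and Rhobtb3 (0.98 each), and Mecom like Tbxas1 and Nynrin (0.98 each). Meis1 was most like Calcrl (0.97) and Cd27 (0.96), Emcn like Csf3r and Ica1 (0.97 each), and Angpt1 like Mfsd13a and Afap1l1 (0.97 each). Procr (Agpat2, 0.95) and Hoxa9 (Slc18a1, 0.93) had the lowest top values.

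Of 30 measured further stem and progenitor genes, 21 were lower and 9 higher in Ly-6D+ than in Ly-6D- CLPs after PBS (median -0.19). After CpG 23 were lower and 7 higher (median -0.12). Past the test, 6 were lower after PBS and 4 after CpG, against 0.798% and 0.938% of all genes, and 0 were higher. They included Gata2, a stem cell and mast cell factor (-1.84, SE 0.25, adjusted p = 0.00385 after PBS, and -1.08, adjusted p = 0.0376 after CpG), Lmo2, a LIM adaptor of stem cell transcription complexes (-0.96, adjusted p = 0.0159, and -0.93, adjusted p = 0.00901), the tetraspanin Cd63 (-1.22, adjusted p = 0.0178 after PBS) and the homeobox gene Nkx2-3 (-1.21, adjusted p = 0.0207 after PBS). For CpG, 0 of the 30 passed in limma in either population or in the average, where 5, 5 and 6 had an unadjusted p under 0.05 in Ly-6D+ CLPs, Ly-6D- CLPs and the average, against 6.51%, 12% and 11.3% of all genes, with medians of -0.09 in Ly-6D+ and -0.14 in Ly-6D- CLPs. Of 20 measured Hox, Pbx and Meis relatives, 0 passed in limma in any of the 6 comparisons, 0 to 2 had an unadjusted p under 0.05, and medians lay between -0.06 and 0.11. Of the other PAR bZIP genes and the bZIP repressor Nfil3, Nfil3 passed, lower in Ly-6D+ CLPs under PBS (-1.49, SE 0.17, adjusted p = 0.00109) and under CpG (-1.12, SE 0.15, adjusted p = 0.00261). The shares of all genes were 0.798% and 0.938%. Dbp and Tef did not pass. Of 10 genes of the angiopoietin and protein C pathways, 2 passed in Ly-6D+ against Ly-6D- CLPs after PBS. Tie1, the partner of Tie2, was lower (-0.79, adjusted p = 0.0307), where 0.798% of all genes passed as lower. Thbd, which encodes thrombomodulin of the protein C pathway, was higher (1.11, adjusted p = 0.0207), where 1.18% of all genes passed as higher. Pros1, encoding protein S, rose with CpG in Ly-6D- CLPs (1.56, SE 0.29, adjusted p = 0.0498), where 0.302% of all genes passed as higher. Its level there ran from 4.80 to 6.01 after CpG and from 3.92 to 4.13 after PBS, and its adjusted p was close to the threshold. Of 3 measured sialomucin and selectin genes, Selp was lower in Ly-6D+ than in Ly-6D- CLPs after CpG (-1.27, adjusted p = 0.0147), against 0.938% of all genes.

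Lymphoid and B-lineage genes gave another order of the groups. Of 13 measured early lymphoid genes, Il7r (-0.81, SE 0.13, adjusted p = 0.03) and Rag2 (-0.75, SE 0.11, adjusted p = 0.0221) fell with CpG in Ly-6D- CLPs, where 0.243% of all genes passed as lower. In Ly-6D+ CLPs 0 passed in limma, 0 also at an unadjusted p under 0.05 (medians -0.34 in Ly-6D- and 0.01 in Ly-6D+ CLPs). Between the populations, 1 of the 13 was higher and 2 lower in Ly-6D+ CLPs after PBS, against 1.18% and 0.798% of all genes, and 4 were higher after CpG, against 1.2%. Of 12 measured B-lineage markers, 10 were higher in Ly-6D+ CLPs after PBS (median 3.26) and 9 after CpG (median 2.91), against 1.18% and 1.2% of all genes, with Igll1, of the surrogate light chain, at 5.76 (SE 0.23, adjusted p = 1.68e-06) after PBS.

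**Figure D4:**
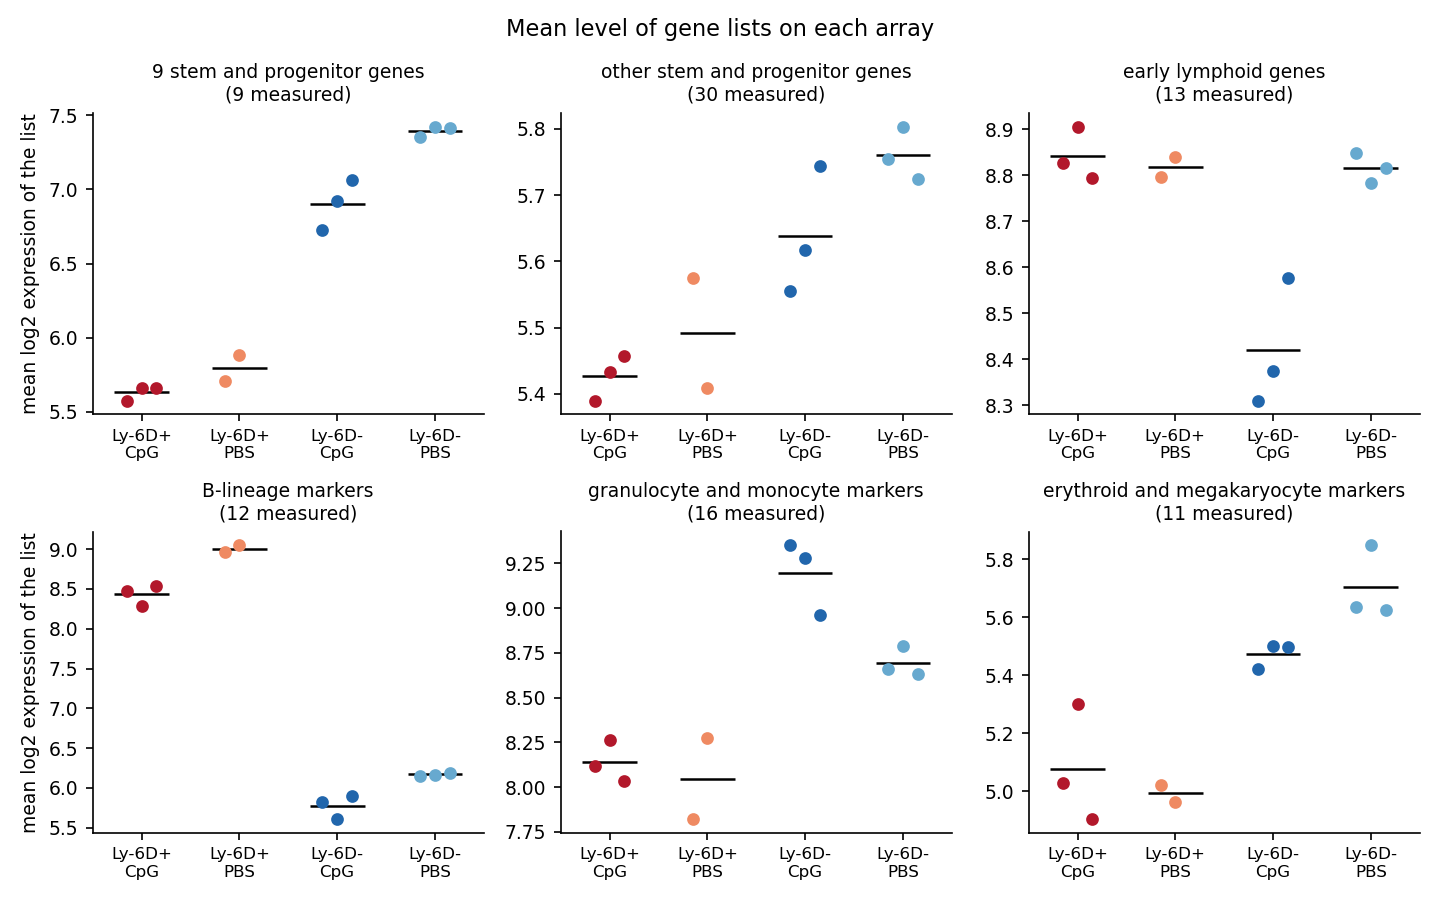
Mean log2 expression of 6 gene lists on each array, in the 4 groups; points are arrays and bars are group means. The 9 stem and progenitor genes are highest in Ly-6D- CLPs after PBS, the B-lineage markers are highest in Ly-6D+ CLPs after PBS, and the granulocyte and monocyte markers are highest in Ly-6D- CLPs after CpG.

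Ly6d went with the label of the sort, at 12.57 ± 0.03 and 12.58 ± 0.02 in Ly-6D+ CLPs after CpG and PBS (SD, n = 3 and 2), against 7.72 ± 0.32 and 8.23 ± 0.24 in Ly-6D- CLPs (SD, n = 3 each), and Il7r, Flt3, Kit and Ptprc were above the median on all 11 arrays. Some markers of other cells were also lower in Ly-6D+ CLPs, and others were higher. Of 11 measured erythroid and megakaryocyte markers, Gp9, Car2 and the mast cell protease gene Cpa3 passed as lower in Ly-6D+ CLPs after PBS, against 0.798% of all genes. The others did not pass, and Gata1 (0.09), Rhag (0.07) and Zfpm1 (0.12) were on the higher side, with 8 of the 11 lower. The summed linear level of the 11 was 444 to 645 in Ly-6D+ CLPs after CpG, 508 to 513 in Ly-6D+ CLPs after PBS, 884 to 985 in Ly-6D- CLPs after CpG and 1073 to 1373 in Ly-6D- CLPs after PBS. Bright markers weigh most in such a sum, and Car2 and Cpa3 had mean log2 levels of 8.82 and 7.70 in Ly-6D- CLPs after PBS. Of 16 granulocyte and monocyte markers, 4 passed as lower in Ly-6D+ CLPs under PBS and 8 under CpG, against 0.798% and 0.938% of all genes. Under PBS 14 of the 16 were lower, and Ly6c2 (0.55) and Fcgr3 (0.23) were on the higher side. With CpG in Ly-6D- CLPs 3 rose past the test, against 0.302%, among them F13a1 (1.81, adjusted p = 0.0101) and Ccr2 (1.57, adjusted p = 0.0101). There 12 of the 16 were higher and 4 lower, among the lower Csf3r (-0.58, adjusted p = 0.244). The summed level of the 16 was 14773 to 16748, 13933 to 17307, 18944 to 23614 and 17079 to 18550 in the same order of groups. The part of these cells in the differences of the 9 genes was not tested. Several of the 9 are also endothelial genes, and the summed level of 17 endothelial markers was 1018 to 1100 and 1087 to 1130 in Ly-6D+ CLPs after CpG and PBS, against 922 to 1002 and 1004 to 1156 in Ly-6D- CLPs, with 10 to 12 of the 17 below the array median. Of the 17, Tie1 (-0.79, adjusted p = 0.0307) and the secreted factor gene Egfl7 (-0.52, adjusted p = 0.024) were lower in Ly-6D+ CLPs after PBS, against 0.798% of all genes. The endothelial cadherin gene Cdh5 was higher in Ly-6D+ CLPs after CpG (1.92, adjusted p = 0.0106), where 1.2% of all genes passed as higher. The medians of the 17 were -0.05 after PBS and -0.01 after CpG. Of 11 stromal markers, Postn alone passed, lower in Ly-6D+ CLPs after PBS (0.798% of all genes) and lower with CpG in Ly-6D- CLPs (0.243%). On each array 9 or 10 of the 11 were below the median. Of 10 T and NK markers, Cd7 and Thy1 were higher in Ly-6D+ CLPs after either treatment, against 1.18% of all genes after PBS and 1.2% after CpG. The others did not pass, and 4 of the 10 were lower after each treatment, such as Nkg7 (-0.48, adjusted p = 0.0657 after PBS). Cd7 rose with CpG in Ly-6D- CLPs (1.01, adjusted p = 0.0154), where 0.302% of all genes passed as higher. Of 8 plasmacytoid dendritic markers, 5 passed as higher in Ly-6D+ CLPs under PBS and 5 under CpG, against 1.18% and 1.2% of all genes. Of these, 3 (Siglech, Bst2 and Cox6a2) passed after both, and Siglech differed by 2.77 after PBS.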

How the data were processed

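The arrays were Affymetrix Mouse Gene 2.0 ST, by the platform that the probe annotation names. The cDNA was amplified from 5 ng of RNA, per the labels' protocols. The authors deposited log2 values, which the submitters' processing notes credit to RMA and Partek, with no version or setting. RMA subtracts background, forces 1 distribution on all arrays and summarises probes, which compresses differences of dim probe sets. Array medians lay between 3.85 and 3.96; arrays have no read depth, and their number limits the precision.

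Of 41345 probe sets, 23521 carry exactly 1 gene symbol in the platform annotation, 1814 carry several and 16010 none. Among single-symbol probe sets, the one with the highest mean stood for each of 22180 genes. All 11 arrays entered 1 fit of the 4 group means (limma 3.58.1, lmFit and eBayes, R 4.3.3), with 7 residual and 3.48 prior degrees of freedom, and p-values were adjusted by Benjamini-Hochberg over all genes. SE is from the moderated spread, and SD is between arrays. The scripts were tested on simulated arrays of this layout. Python 3.11.15 drew the figures.

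The 9 genes, the lists and the rule for named genes (the 9; up to 4 members of each list that passed; the 3 genes most correlated with each of the 9) were chosen with earlier results of these data known; not every gene the rule allows is described. Sequences are from RefSeq. List genes for which no single-symbol probe set was used are not analysed here. Alternatives were other probe set choices, estimates of the spread, normalisations and filters, a block for the replicate number, and fits that left out 1 array. Leaving out all 3 CpG and PBS arrays numbered 3 was an alternative chosen after seeing the data.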

Additional observations from a re-analysis of the deposited data

Results flagged for a closer look

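The arrays of Cd34 and of Hoxa9 moved in opposite directions in the 2 populations. Every Ly-6D+ CpG array was above every Ly-6D+ PBS array, and every Ly-6D- CpG array was below every Ly-6D- PBS array. The first pattern held for 10.7% of all genes and the second for 7.2%. The share of all genes with both patterns was not computed. The CpG effect in Ly-6D+ minus that in Ly-6D- CLPs was 0.64 for Cd34 (limma adjusted p = 0.501) and 0.69 for Hoxa9 (adjusted p = 0.538), so neither passed the test of the difference over all genes.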

How the results depend on the processing

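Of 1062 values of the 9 genes under the alternatives, 1014 kept their direction and side of the threshold, 21 calls ended, 10 were gained and 17 changed sign, none of which had passed. After PBS, all 9 genes passed as lower in Ly-6D+ CLPs under every alternative except the fits of only the groups compared (Meis1, adjusted p = 0.05), without the arrays numbered 3 (Procr, 0.0585), and without single arrays, where 5 to 9 passed. After CpG, 5 or 6 passed in each of the fits; Mecom ended with the mean of its probe sets (0.0718) and with only the groups compared (0.0805), and Emcn without the arrays numbered 3 (0.0603). For CpG in Ly-6D+ CLPs, 1 of the 9 (Angpt1) passed with a variance trend and robust estimation, with the replicate block (adjusted p = 0.0218) and without the arrays numbered 3 (0.0311), and 0 or 1 without single arrays. For CpG in Ly-6D- CLPs, 3 passed with the trend and 1 (Angpt1, 0.0491) with the replicate block, and 0 or 1 without single arrays; averaged, 2 passed with the trend, and 0 or 1 without single arrays. The labels do not say that numbers mark shared animals, so the block was not taken as a pairing. In deviations from group means, arrays of the same number correlated by -0.03 to 0.18, and arrays of different numbers by -0.13 to 0.09. The highest value (0.18) was between Ly-6D+ CpG replicate 3 and Ly-6D- CpG replicate 3. Whether the numbers mark shared animals or runs was not tested.

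Over all genes, the count for CpG in Ly-6D+ CLPs was 6, against 18 with the trend, 0 with only the groups compared, 11 with the replicate block, 16 without the arrays numbered 3 and 4 to 16 without single arrays. In Ly-6D- CLPs it was 121, against 425 with the trend, 4 with only the groups compared, 236 without the dimmest genes and 5 to 309 without single arrays. For the average it was 107, against 302 with the trend and 6 to 216 without single arrays. Between populations after PBS it was 439, against 660 with the trend, 190 with only the groups compared and 185 to 416 without single arrays, and after CpG it was 474, against 726 with the trend, 264 with only the groups compared, 300 without the arrays numbered 3 and 264 to 516 without single arrays. For the difference of CpG effects it was 0, and 0 or 1 without single arrays. The cause of these shifts was not tested.

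The sign changes without single arrays were within these ranges of log2 changes. In Ly-6D+ CLPs Meis1 ran from -0.114 to 0.177 and Hlf from -0.0638 to 0.217. In Ly-6D- CLPs Myct1 ran from -0.251 to 0.00653. In the average, Cd34 ran from -0.0281 to 0.0616, Procr from -0.0446 to 0.148 and Hoxa9 from -0.0690 to 0.00588. Hoxa9 between populations after CpG ran from -0.132 to 0.0175, and the difference of CpG effects for Emcn from -0.0176 to 0.975. Mecom in Ly-6D+ CLPs was 0.0240 with the mean of its probe sets, and the average of Cd34 was -0.0390 after a further quantile normalisation. Signal over background is not known for any gene.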
